A study of Drosophila melanogaster with 12 samples.

Results

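The data described here are those of a pair of long terminal repeat (LTR) retrotransposons of Drosophila melanogaster, copia and FBgn0000007_1731, in testes with normal and reduced Klp10A. The latter element is known by its last 4 digits and is written here as in the files. Both were chosen by name, as the rows FBgn0000349_copia and FBgn0000007_1731. They are 2 of the 123 transposable elements (TEs) with piRNA values and 2 of the 127 TEs with transcript counts. Transcript counts cover a further 15240 genes. The repeats stellate, stellateHet, suste and mst40 are counted among these TEs and enter every total over TEs. Testes of wild type and klp10A RNAi flies, all aged 0-2 days, were the source of small RNA libraries and of libraries of RNA depleted of rRNA. In klp10A RNAi, a UAS hairpin against Klp10A, a kinesin that shortens microtubules, was driven by nos-gal4, so that the knockdown was aimed at early germ cells while the libraries hold whole testes. Each of the 12 libraries was made from 300 pairs of testes pooled together, with 3 biological replicates per genotype and assay. The control is labelled wild type, with no driver or hairpin named.

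Copia is the element after which the Ty1/copia branch of LTR retrotransposons is named, and FBgn0000007_1731 belongs to the same branch. Such elements are transcribed from the 5′ LTR into an RNA that encodes Gag and Pol, is packaged into virus-like particles, is copied into DNA and is inserted elsewhere in the genome. piRNAs are small RNAs bound by the Argonaute proteins Piwi, Aub and AGO3 that silence TEs in the germline. Antisense piRNAs can pair with TE transcripts, and sense piRNAs can arise when those transcripts are cut in the ping-pong cycle.

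Total counts in the 6 rRNA-depleted libraries ranged from 18634687 to 25536724, and between 24.9 and 51.6% of them fell on genes whose only name is a CR number. Wild type replicate 2 stood apart from the other 2 wild type libraries, with the lowest TMM (trimmed mean of M values) factor, 0.70, and the lowest mean correlation with its own genotype, 0.966. The targeted gene, Klp10A, was at 1458, 802 and 1527 counts in wild type against 327, 364 and 313 in klp10A RNAi, a log2 fold change of -2.35 (SE 0.16, edgeR adjusted p = 0.00105). Summed spermatid markers of the testis lay between 1885 and 2397 CPM (counts scaled to library size) in wild type and between 2082 and 2569 CPM in klp10A RNAi. Sums of markers of the accessory gland, which is not part of the testis, lay between 1806 and 3310 CPM and between 1560 and 2031 CPM.

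Both strands of copia piRNA were higher in klp10A RNAi on the authors' scale, which is set by reads on miRNA hairpins, whereas relative to the TE total the sense strand turned to -0.15 on the log2 scale. Antisense piRNA of copia had normalized counts of 90277, 93430 and 84862 in wild type replicates 1 to 3 and of 186082, 166777 and 175240 in klp10A RNAi. The lowest klp10A RNAi library thus stood well above the highest wild type library, and 83.7% of TEs had no overlap between genotypes on this strand. In whole testes, a change in the number of cells of a type and a change in RNA per cell cannot be told apart. The means were 89523 ± 4333 and 176033 ± 9677 (SD, n = 3), a log2 fold change of 0.98 (SE 0.08, 95% confidence interval 0.78 to 1.17, 1.97-fold, limma adjusted p = 0.000222). A TE was called when its adjusted p was under 0.1 and its change exceeded 1.5-fold, which copia met. Of all TEs, 62.6% were called higher in antisense piRNA, and the median log2 fold change was 0.79. Copia had rank 34 of 123 from the highest change, between HeT_A (0.98), a telomeric retrotransposon, and hopper (0.97), a DNA transposon.

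Sense piRNA of copia had normalized counts of 478714, 514908 and 542011 in wild type and of 766719, 788642 and 843278 in klp10A RNAi. The genotypes did not overlap, as was so for 80.5% of TEs, and the means were 511878 ± 31757 and 799546 ± 39427 (SD, n = 3). The log2 fold change was 0.64 (SE 0.11, 95% confidence interval 0.39 to 0.90, 1.56-fold, limma adjusted p = 0.00198), which was called as higher on the miRNA scale and was -0.15 when libraries were instead scaled to their TE totals. On this strand 75.6% of TEs were called higher, with a median of 0.85, so copia moved less than most TEs and had rank 91 of 123. Its neighbours were HeT_A (0.65) and invader4 (0.64), an LTR element. With both strands summed, copia had a log2 fold change of 0.70 (SE 0.08, limma adjusted p = 0.000195) and rank 79, where 71.5% of TEs were called higher and the median was 0.81.

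The piRNA of FBgn0000007_1731 had smaller log2 fold changes than that of copia on both strands. Antisense piRNA of FBgn0000007_1731 had normalized counts of 30626, 30359 and 28458 in wild type and of 39873, 37851 and 40704 in klp10A RNAi. All klp10A RNAi libraries were above all wild type libraries on this scale, and below them as a share of all TE piRNA. The means were 29814 ± 1182 and 39476 ± 1467 (SD, n = 3), a log2 fold change of 0.41 (SE 0.07, 95% confidence interval 0.23 to 0.58, 1.32-fold, limma adjusted p = 0.00274). This passed the limit on p and not the limit of 1.5-fold, so FBgn0000007_1731 was not called. Sense piRNA of FBgn0000007_1731 had normalized counts of 124994, 139965 and 128282 in wild type and of 171314, 161024 and 174720 in klp10A RNAi. These groups did not overlap either, and the log2 fold change was 0.37 (SE 0.10, 95% confidence interval 0.12 to 0.62, 1.29-fold, limma adjusted p = 0.0157), again under the fold limit. In order of change FBgn0000007_1731 had rank 100 of 123 in antisense piRNA, between Fw3 (0.41) and G5 (0.40), and rank 104 in sense piRNA, between gypsy9 (0.37) and Rt1b (0.37). Non-overlap was common, at 83.7% of TEs in antisense and 80.5% in sense piRNA.

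**Figure D1:**
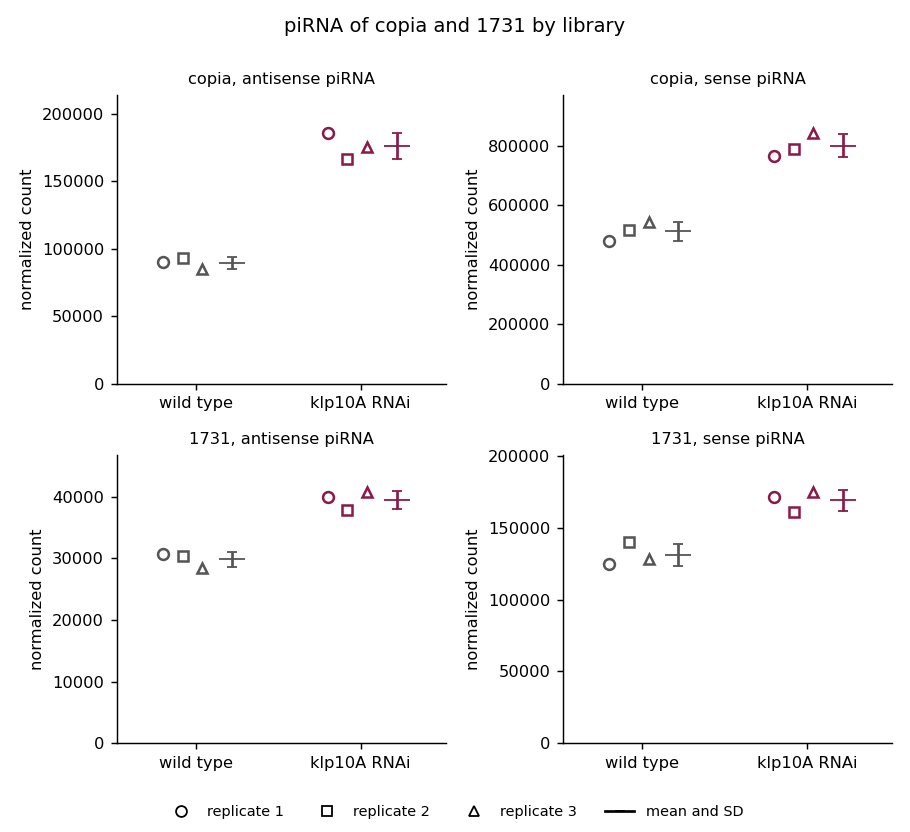
Normalized counts (on the authors' miRNA hairpin scale) of antisense and sense piRNA of copia and FBgn0000007_1731 in each library, with symbols for the replicates and a bar for the mean and SD (n = 3). In all 4 panels the klp10A RNAi libraries lie above the wild type libraries on this scale; scaled to the total over TEs, copia sense and both strands of FBgn0000007_1731 turn lower.

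The scale on which libraries are set beside each other decided the sign for 3 of these 4 values. As a share of all antisense TE piRNA, copia made up 0.703, 0.567 and 0.60% in wild type against 0.728, 0.658 and 0.643% in klp10A RNAi, and these ranges overlapped. By the same measure FBgn0000007_1731 made up 0.239, 0.184 and 0.201% in wild type against 0.156, 0.149 and 0.149% in klp10A RNAi, lower in all klp10A RNAi libraries. After scaling to the total over TEs the log2 fold change of FBgn0000007_1731 antisense piRNA was -0.45 (limma adjusted p = 0.0357) and that of sense piRNA -0.42 (limma adjusted p = 0.0301), both under the fold limit. For copia it was 0.12 in antisense and -0.15 in sense piRNA, with limma adjusted p of 0.480 and 0.382. Relative to the TEs as a whole, FBgn0000007_1731 was thus lower on both strands by less than 1.5-fold, and a difference of copia was not resolved. Each estimated read was worth between 33.0 and 44.7 units of normalized count, from steps between low values of which 42.3 to 66.7% were whole multiples within 0.6 units. At that value antisense piRNA of copia rested on about 2169 to 5639 reads per library and that of FBgn0000007_1731 on about 705 to 1208, for a counting error of 2.88 to 3.77% for FBgn0000007_1731. Only steps within a preset range were searched, so these read numbers and errors are rough.

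Most piRNA of both elements was sense. The sense share of copia piRNA was 84.1, 84.6 and 86.5% in wild type against 80.5, 82.5 and 82.8% in klp10A RNAi. It was lower in all klp10A RNAi libraries, with means of 85.1 ± 1.22% and 81.9 ± 1.28% (SD, n = 3). The log2 ratio of sense to antisense changed by -0.33 (SE 0.12, 95% confidence interval -0.64 to -0.02, limma adjusted p = 0.138) and was not called. In this ratio, 3.25% of TEs were called lower and 6.5% higher, and 38.2% did not overlap between genotypes. The sense share of FBgn0000007_1731 piRNA was 80.3, 82.2 and 81.8% in wild type against 81.1, 81.0 and 81.1% in klp10A RNAi, and the genotypes overlapped. Its log2 ratio changed by -0.04 (SE 0.10, 95% confidence interval -0.28 to 0.20, limma adjusted p = 0.789). A sense share above 50% was found for 32 of 123 TEs in wild type, where the median was 33.2%, and copia and FBgn0000007_1731 had ranks 6 and 10 from the highest share. In klp10A RNAi they had ranks 11 and 12, with a median of 37.9%.

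Copia transcripts were lower in klp10A RNAi. Copia had 1326472, 1417155 and 1439496 counts in wild type against 507145, 605142 and 602609 in klp10A RNAi. After TMM normalization these were 69784, 100780 and 69367 CPM in wild type against 20436, 23987 and 25126 CPM in klp10A RNAi. Each klp10A RNAi library lay far below each wild type library, and wild type replicate 2 was the highest. The means were 79977 ± 18017 and 23183 ± 2446 CPM (SD, n = 3), so the klp10A RNAi mean was 0.290 times that of wild type. The log2 fold change was -1.79 (SE 0.34, 95% confidence interval -2.58 to -1.0, edgeR adjusted p = 0.0206), which was called. Of the 126 TEs tested, 7.94% were called lower and 1.59% higher, the median was -0.14, and 30.2% did not overlap between genotypes. Copia had rank 125, between NOF (-1.74) and FB (-2.75), both from foldback DNA elements; FB, with an SE of 0.93, was not called (edgeR adjusted p = 0.114).

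Without wild type replicate 2 the log2 fold change of copia was -1.59 (edgeR adjusted p = 0.00347). Without klp10A RNAi replicate 1 it was -1.69 with an edgeR adjusted p of 0.117, which ended the call. Counts for copia may include reads shared out among near-identical copies and, since the strand setting of the counting is not given in the sources used here, antisense RNA. The summed level of primary spermatocyte markers, 10 of 11 matched, was 112 to 133 CPM in wild type against 160 to 172 CPM in klp10A RNAi, and that of spermatogonial markers, 5 of 5, was 43.2 to 45.4 and 55.4 to 58.2 CPM. Most of the spermatogonial sum was bgcn, with means of 32.7 CPM in wild type and 42.8 CPM in klp10A RNAi. In that list 4 of 5 log2 fold changes were above 0, stg had -0.84 (edgeR adjusted p = 0.200), and vas, at 0.12, overlapped between genotypes. Hub and cyst cell markers, 5 of 5, summed to 56.6 to 66.3 CPM in wild type against 50.8 to 64.5 CPM in klp10A RNAi. Members of that list went opposite ways, since eya had a log2 fold change of 0.45 without overlap (edgeR adjusted p = 0.0828) and Fas3, which made up most of the sum, -0.39 (edgeR adjusted p = 0.200). Markers of fat body and midgut, of which 4 of 7 passed the filter on low counts, summed to 17.1 to 114 CPM in wild type against 2.54 to 4.25 CPM in klp10A RNAi. Of these, alphaTry, Jon65Aiv and Mal-A1 had 1 to 17 counts per klp10A RNAi library and passed that filter through wild type. The sum is thus no test of a difference between genotypes. In wild type replicates 1 to 3 that sum was 114, 17.1 and 50.6 CPM. Copia was highest in wild type replicate 2 by CPM, and in wild type replicate 3 by counts and as a share of all counts. No marker of these lists was at 0 in all libraries, and the part of these cells in the copia result was not tested.

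As a share of all TE counts, copia made up 53.9, 54.6 and 55.2% in wild type against 27.7, 27.9 and 30.9% in klp10A RNAi. These are shares of counts, not corrected for the length of the elements. The share varied less among wild type libraries than the CPM did, with a coefficient of variation of 1.22% against 22.5%. As a share of all gene and TE counts, copia made up 5.69, 7.07 and 7.22% in wild type against 2.72, 2.37 and 3.20% in klp10A RNAi.

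Transcripts of FBgn0000007_1731 did not pass the test. This element had 42840, 44000 and 58193 counts in wild type against 83017, 103014 and 78743 in klp10A RNAi, or 2254, 3129 and 2804 CPM and 3345, 4083 and 3283 CPM. The genotypes did not overlap, as was so for 30.2% of TEs, but wild type replicate 2 and klp10A RNAi replicate 3 were close. The means were 2729 ± 442 and 3571 ± 445 CPM (SD, n = 3), a log2 fold change of 0.39 (SE 0.23, 95% confidence interval -0.15 to 0.92, edgeR adjusted p = 0.330) that was not called. It had rank 9 of 126, between stellateHet (0.42), a repeat, and mariner2 (0.38), a DNA transposon. With total counts in place of TMM, which moved the median log2 fold change of all genes from 0.01 to 0.50, FBgn0000007_1731 had 0.87 (edgeR adjusted p = 0.0749) and was called. As a share of all TE counts, FBgn0000007_1731 made up 1.74, 1.69 and 2.23% in wild type against 4.53, 4.76 and 4.04% in klp10A RNAi, or 2.35 times, but this total includes copia and fell with it. With copia left out of the total, the shares were 3.77, 3.73 and 4.98% in wild type against 6.26, 6.60 and 5.85% in klp10A RNAi, or 1.5 times.

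**Figure D2:**
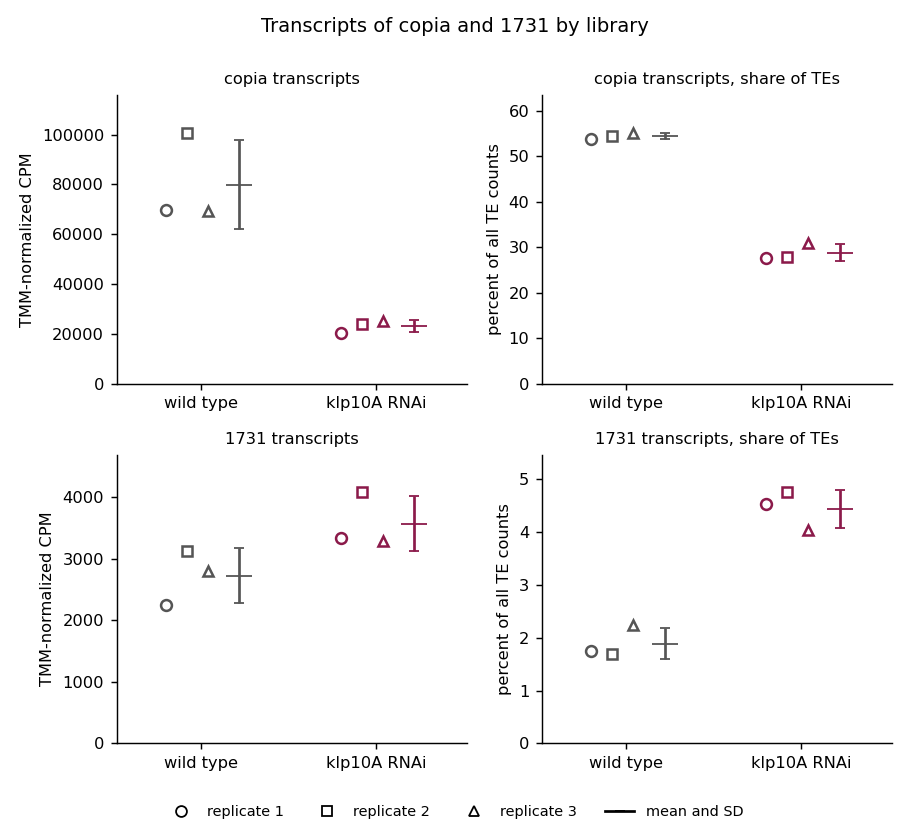
Transcripts of copia and FBgn0000007_1731 in each library, as TMM-normalized CPM (left) and as percent of all TE counts, copia included (right), with a bar for the mean and SD (n = 3). Copia lies lower in all klp10A RNAi libraries on both scales, and FBgn0000007_1731 lies higher in all of them, although its CPM did not pass the test.

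The sum of TE transcripts depended on copia. TEs took 10.6, 13.0 and 13.1% of all counts in wild type against 9.84, 8.48 and 10.3% in klp10A RNAi, without overlap, and the difference was -2.64 percentage points (exact permutation p = 0.1, two-sided, the smallest that 20 splits of 3 against 3 can give). With copia left out, the remaining TEs took 4.87, 5.89 and 5.86% in wild type against 7.11, 6.11 and 7.14% in klp10A RNAi, so that the difference turned to 1.25 percentage points (exact permutation p = 0.1). These shares are on the scale of total counts, on which the median log2 fold change of all genes was itself 0.50. In TMM-normalized CPM the sum over TEs was 0.548 times the wild type mean, and copia made up 85.7% of the difference. The sum without copia was 0.858 times the wild type mean (exact permutation p = 0.4), and the genotypes overlapped. Wild type replicate 2 carried that remainder, and without this library the sum without copia was 0.985 times the wild type mean. Leaving out FBgn0000007_1731 as well gave 0.838 times (exact permutation p = 0.3), or 0.966 times without wild type replicate 2.

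**Figure D3:**
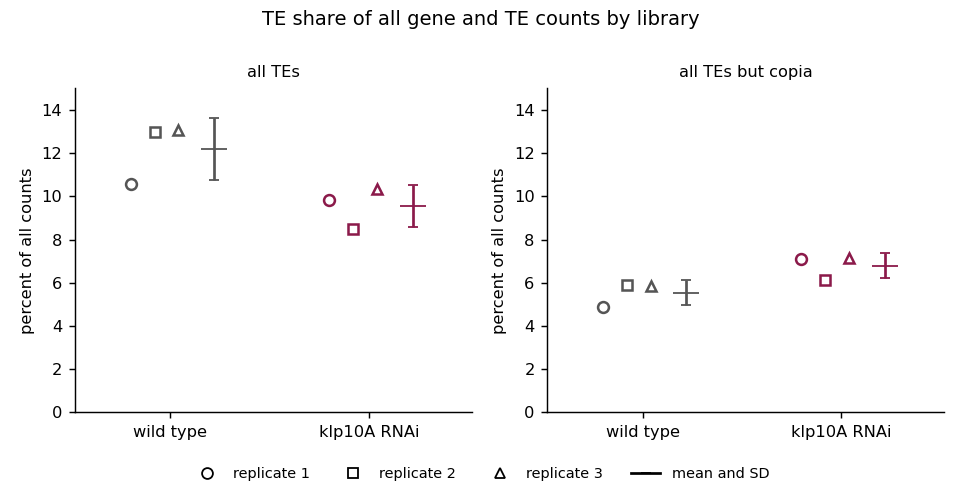
Percent of all gene and TE counts that fell on TEs in each library, for all TEs (left) and with copia left out (right), with a bar for the mean and SD (n = 3). The klp10A RNAi libraries lie below wild type on the left, at 8.48 to 10.3% against 10.6 to 13.1%, and above wild type on the right, at 6.11 to 7.14% against 4.87 to 5.89%. In TMM-normalized CPM the sum without copia is not higher in klp10A RNAi, and the genotypes overlap.

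Within a library, the ratio of copia to FBgn0000007_1731 needs no scaling between libraries. In antisense piRNA it was 2.95, 3.08 and 2.98 in wild type against 4.67, 4.41 and 4.31 in klp10A RNAi, 1.48 times the wild type ratio. In sense piRNA it was 3.83, 3.68 and 4.23 in wild type against 4.48, 4.90 and 4.83 in klp10A RNAi, or 1.21 times. In transcripts the ratio was 31.0, 32.2 and 24.7 in wild type against 6.11, 5.87 and 7.65 in klp10A RNAi, or 0.223 times. The ratio was thus higher in klp10A RNAi for both piRNA strands and lower for transcripts, with no overlap in any of the 3 measures. How often ratios of other pairs of TEs do not overlap was not computed. The changes in mean log2 ratio were 0.57, 0.28 and -2.16, each with an exact permutation p of 0.1 (two-sided), the smallest this design allows, so none can pass 0.05. The ratio compares changes and not the abundance of both elements, since their lengths were not used.

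**Figure D4:**
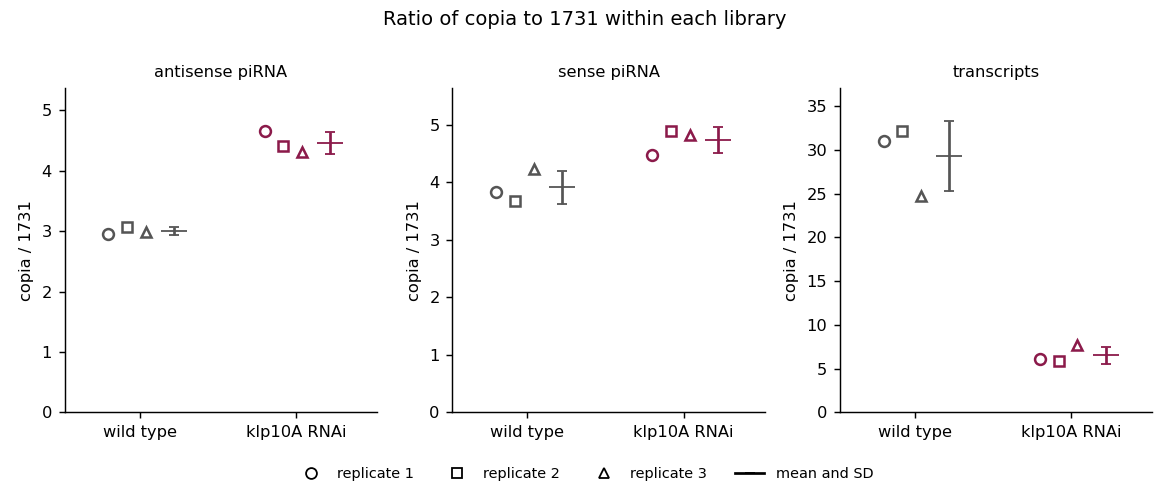
Ratio of copia to FBgn0000007_1731 in each library, from antisense and sense normalized counts and from transcript counts (linear axes from 0), with a bar for the mean and SD (n = 3). The ratio is higher in klp10A RNAi for both piRNA strands and falls from 24.7 to 32.2 in wild type to 5.87 to 7.65 for transcripts.

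On the miRNA scale the log2 fold changes of piRNA and transcripts had opposite signs for copia and were close for FBgn0000007_1731, whose transcript change was not called. For copia the antisense log2 fold change minus that of transcripts was 2.76, rank 3 of 123 TEs, and the sense difference was 2.43, rank 4. For FBgn0000007_1731 these differences were 0.02, rank 114, and -0.02, rank 118. The medians over TEs were 0.91 for antisense and 1.01 for sense piRNA. On the miRNA scale, 77 of 123 TEs had a positive antisense and a negative transcript log2 fold change, as copia did, and 38 had both above 0, as FBgn0000007_1731 did, whatever their tests. These differences join separate libraries on separate scales and were not tested.

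**Figure D5:**
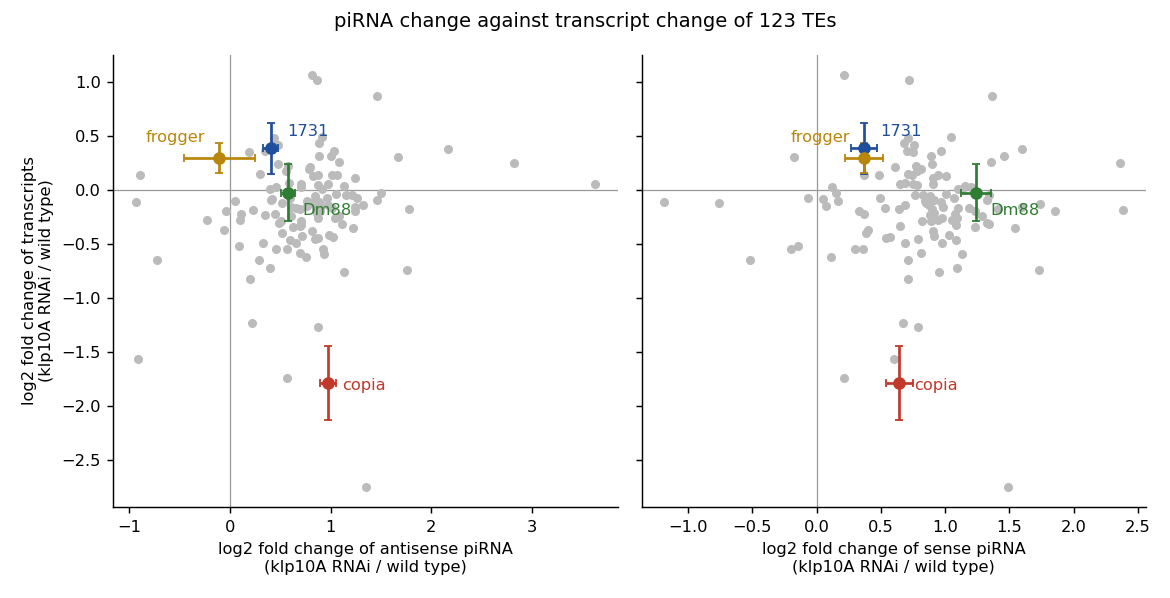
Log2 fold change (klp10A RNAi over wild type) of antisense (left) and sense piRNA (right) on the miRNA hairpin scale against that of transcripts, 1 point per TE for 123 TEs, with SE bars for the named elements. Copia lies low, at -1.79 in transcripts, and FBgn0000007_1731 lies near 0.4 on all axes; on the scale of the total over TEs the piRNA values of FBgn0000007_1731 and the sense value of copia are below 0.

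Dm88 and frogger are other elements of the Ty1/copia branch, and their values are given beside those of the members, with no test of a difference. Antisense piRNA of Dm88 was 75184 ± 1883 in wild type against 112210 ± 5702 in klp10A RNAi (SD, n = 3). On the miRNA scale its log2 fold change was 0.58 (SE 0.07, 1.49-fold, limma adjusted p = 0.000773), under the fold limit. Its sense piRNA had 1.24 (SE 0.12, limma adjusted p = 0.000658) and was called. The mean share of Dm88 in all antisense TE piRNA was 0.523% in wild type against 0.431% in klp10A RNAi. In all sense TE piRNA it was 1.01% against 1.37%. The sense share of Dm88 was 50.1 ± 1.42% in wild type against 61.4 ± 1.86% in klp10A RNAi, the opposite direction to copia, and its log2 ratio of sense to antisense changed by 0.66 (SE 0.11, limma adjusted p = 0.0356) and was called. That call ended, at limma adjusted p of 0.116, 0.168 and 0.111, without wild type replicate 3, klp10A RNAi replicate 1 or klp10A RNAi replicate 2. Dm88 transcripts had a log2 fold change of -0.02 (SE 0.26, edgeR adjusted p = 0.957). Frogger had little piRNA, with 140, 164 and 208 antisense normalized counts in wild type against 129, 266 and 112 in klp10A RNAi, and its sense share was 91.1 ± 2.78% and 93.2 ± 3.0% (SD, n = 3). On the miRNA scale its sense piRNA had a log2 fold change of 0.37 (SE 0.15, limma adjusted p = 0.0565) and its summed strands 0.34 (SE 0.12, limma adjusted p = 0.0313), close to the 0.37 of FBgn0000007_1731 in both. Values of frogger overlapped between genotypes in both measures, and those of FBgn0000007_1731 did not. Frogger transcripts had a log2 fold change of 0.30 (SE 0.14, edgeR adjusted p = 0.231).

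The elements whose values ran most like those of the members over the 6 libraries were listed by Pearson correlation of log2 values, as a description, since all 6 libraries share the difference between genotypes. For antisense piRNA of copia these were gtwin (0.998), rooA (0.995) and gypsy2 (0.995), all LTR elements. For antisense piRNA of FBgn0000007_1731 they were copia (0.989), Dm88 (0.988) and Quasimodo (0.987). For sense piRNA they were suffix (0.997), suste (0.992) and opus (0.992) for copia, and R1A1_element (0.994), G5 (0.994) and G2 (0.993) for FBgn0000007_1731. Transcripts of copia ran most like those of Bari1 (0.953), INE_1 (0.937) and BS (0.935), and those of FBgn0000007_1731 like Rt1a (0.964), X_element (0.935) and baggins (0.925). Among 11139 genes, CG31524, CG3285, Trx-2, CG8745 and ebd2 were most like copia, at 0.997 to 0.999, and CG13474, DJ-1alpha, Taz, CG11858 and CG14834 most like FBgn0000007_1731, at 0.984 to 0.989.

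Genes of the piRNA pathway did not pass the test. Of 26 listed genes, 0 were called at an edgeR adjusted p under 0.01 and 0 by DESeq2, and 4 had an unadjusted edgeR p under 0.05. Among all 11974 genes tested, 0.2% were called higher and 1.85% lower, and 25.2% had an unadjusted p under 0.05, a larger share than in the list. The median log2 fold change of the list was 0.11, against 0.01 over all genes, and 19 of 26 were above 0, where 51.0% of all genes were. Of the Argonautes, aub had 5.73, 6.26 and 9.20 CPM in wild type against 10.8, 9.75 and 11.5 CPM in klp10A RNAi, a log2 fold change of 0.59 (SE 0.20, edgeR adjusted p = 0.111). The values of piwi and AGO3 overlapped between genotypes, with log2 fold changes of 0.21 (edgeR adjusted p = 0.471) and -0.09 (edgeR adjusted p = 0.750). The smallest p of the list was that of vret, a Tudor domain gene, with 0.45 (SE 0.14, edgeR adjusted p = 0.0886), and zuc, the nuclease that forms piRNA 5′ ends, had 0.92 on 4 to 15 counts per library (edgeR adjusted p = 0.163). The value of del, a factor in piRNA cluster transcription, was -0.37 (edgeR adjusted p = 0.195).

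A further list held 7 host genes that are linked in the literature to these elements or to their Gag proteins. Of these, 0 were called at an edgeR adjusted p under 0.01, 6 had an unadjusted edgeR p under 0.05, and 2 were called by DESeq2. Over all genes 25.2% had such an unadjusted p, and DESeq2 called 5.82% of the 13292 genes to which it gave an adjusted p. All 7 had log2 fold changes below 0, as 49.0% of all genes did, with a median of -0.55. Arc1, a host gene derived from the Gag of another LTR retrotransposon, had 19373, 53863 and 29171 counts in wild type against 12988, 13268 and 15274 in klp10A RNAi. Wild type replicate 2 was again the highest, and the log2 fold change was -1.89 (SE 0.47, edgeR adjusted p = 0.0464). Without that library it was -1.11 (SE 0.17, edgeR adjusted p = 0.00798), which passed the limit for genes. Arc1 had an edgeR adjusted p of 0.0216 or 0.0623 without wild type replicate 1 or 3. With klp10A RNAi replicate 1, 2 or 3 left out, its edgeR adjusted p was 0.169, 0.161 or 0.144. Its paralog Arc2 had -1.34 (SE 0.31, edgeR adjusted p = 0.0405). EcR, the ecdysone receptor, to which FBgn0000007_1731 is known to respond in cultured cells, had -0.55 (SE 0.14, edgeR adjusted p = 0.0541), and its partner usp had -0.48 (edgeR adjusted p = 0.0786). Of the genes that modify the white-apricot allele, a copia insertion in white, su(w[a]) had -0.76 (edgeR adjusted p = 0.0660), Doa -0.45 (edgeR adjusted p = 0.136) and su(f) -0.32 (edgeR adjusted p = 0.440).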

How the data were processed

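The authors trimmed small RNA reads with Trimmomatic 0.27, set aside rRNA and miRNA hairpin reads with Bowtie2 2.2.3, aligned the rest to the dm3 transcriptome, estimated abundance per TE with eXpress and normalized by miRNA hairpin reads. The deposited normalized values are whole numbers on a scale that is not stated and were treated as a score, not as reads. For rRNA-depleted RNA, the authors aligned with STAR 2.6.0a and counted genes and TEs with TEtranscripts. These counts were analysed as deposited, although the labels speak of normalized counts.

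piRNA values were tested with limma 3.58.1 on log2(value + 1) over 123 TEs, so fold changes are on that scale. Counts were tested with edgeR 4.0.16 (filterByExpr, TMM over genes and TEs, quasi-likelihood F-test) in R 4.3.3, with DESeq2 1.42.0 as an alternative. Benjamini-Hochberg adjustment ran over the 123 TEs for piRNA and over every tested gene and TE for counts. Calls required an adjusted p under 0.1 with over 1.5-fold for TEs and an adjusted p under 0.01 for genes. Ratios and sums per library were tested by exact permutation. The edgeR fit of counts and the limma fit of piRNA values were tested on simulated data, and the other steps were not.

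Groups came from the sample labels. The members, the gene and marker lists and the tests were chosen with earlier results of these data known. The piRNA pathway list is the study's reference list of such proteins, and the others come from general knowledge. Besides copia and FBgn0000007_1731, the text names other Ty1/copia elements, neighbours in rank, the 3 TEs and 5 genes (mean of at least 1 CPM) with the most similar values, the Argonautes and, where few genes of a list pass, those with the smallest p; FB was described further after its value was seen. Of the linked host genes all 7 are named. Replicates 1 to 3 of the genotypes share only a number, so no pairing was used. No 2 rRNA-depleted libraries of the same genotype had counts alike within sampling noise, and other pairs were not compared. The mean chi-square per gene was 7.35 between klp10A RNAi replicates 1 and 3, and 103 to 295 for the other pairs within a genotype. Total small RNA depth and element sequences were not used here.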

Additional observations from a re-analysis of the deposited data

How the results depend on the processing

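Scaled to the total over TEs, the log2 fold change of antisense piRNA was 0.12 for copia and -0.45 for FBgn0000007_1731, of sense piRNA -0.15 and -0.42, and of both strands summed -0.13 and -0.46. Centred on the median TE, the values were 0.21 and -0.36, -0.14 and -0.41, and 0.061 and -0.26. TEs called in antisense piRNA then numbered 17 (5 higher) and 14 (5 higher) in place of 80 (77 higher), and in sense piRNA 16 (8 higher) by either in place of 95 (93 higher). For summed strands they were 18 (5 higher) and 18 (12 higher) in place of 89 (88 higher). For copia transcripts, the change of -1.79 was not called at an adjusted p under 0.01, ranged from -1.88 to -1.59 when 1 library was left out, and had an edgeR or DESeq2 adjusted p between 2.2e-15 (DESeq2) and 0.129. With a replicate block it was -1.77 and not called, and no other call of copia or FBgn0000007_1731 changed; same-numbered libraries did not deviate together (correlations from -0.70 to 0.244 over all measures), and none was most like its own number. With total counts the value for FBgn0000007_1731 transcripts was 0.87 and that for copia -1.27. The TEs called in transcripts numbered 12 (2 higher), 24 with total counts (19 higher), 2 with the block, 0 at an adjusted p under 0.01 and 0 to 12 with 1 library left out. In the ratio of sense to antisense they numbered 12 (8 higher), 1 with the block, 1 at an adjusted p under 0.01 and 1 to 18 with 1 library left out. The count of linked host genes called was 0, 2 by DESeq2, 1 with total counts, 5 at an adjusted p under 0.1 and 0 to 1 with 1 library left out. Of piRNA pathway genes 1 (vret) passed 0.1. Leaving copia out, or copia and FBgn0000007_1731, and the alternatives for Dm88 and Arc1 were chosen after seeing the data. With the replicate block the Dm88 ratio was not called (limma adjusted p = 0.169). With copia, or copia and FBgn0000007_1731, left out, the TE share of counts differed by 1.25 and 1.06 percentage points in place of -2.64. Summed TE CPM differed by -9490 and -10331 in place of -66283. The cause of these differences was not tested.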
